A study of Mus musculus with 9 samples.

Results

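The Ntrk2 large mechanoreceptor neurons were trigeminal sensory neurons picked by their transcripts from a table of 6997 single-cell barcodes. A barcode was taken when it had 500 to 7500 genes with a unique transcript (UMI), a UMI of at least 3 of Tubb3, Scn9a, Snap25, Nefl, Nefm and Uchl1, no UMI of Epcam, at least 1 UMI of Ntrk2 and a UMI of at least 2 of Baiap2l1, Colq, Cadps2, Lgi2, Col23a1, Ntng1 and Cbln2. This gave 93 Ntrk2 neurons among the 3855 barcodes that met the limits for a neuron, or 2.41% (1.95 to 2.95%, exact binomial 95% interval). The mice were FVB/N wild types, 3 to 6 weeks old by the labels, and their trigeminal ganglia were pooled for each of 9 runs of Dropseq, in which single cells are captured in droplets with barcoded beads and counted from the 3′ ends of their transcripts. No treatment or genetic change was given. Because a barcode does not name its run or its mouse, all cells form 1 pooled sample. Every value below is therefore a description of these cells without a test, and the intervals, at 95%, cover counting error only.

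Ntrk2 encodes TrkB, the receptor tyrosine kinase for the neurotrophins BDNF and NT-4. In sensory ganglia TrkB is known from lightly myelinated low-threshold mechanoreceptors that innervate down hairs, and from some of the larger touch neurons, which share heavy neurofilament, S100b and the mechanically gated channel Piezo2. Among the other genes that picked the cells, Colq encodes the collagen tail that anchors acetylcholinesterase, Cadps2 a priming factor for dense-core vesicles, and Lgi2 a secreted protein of the leucine-rich glioma-inactivated family. Ntng1 (netrin-G1) and Cbln2 (cerebellin 2) act in the organization of synapses, Baiap2l1 in the bending of membranes by actin, and Col23a1 is a membrane collagen.

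The Ntrk2 neurons held 1106370 UMIs, with a median of 7083 UMIs per cell (1054 to 52579) and 3037 genes. The 3762 other neurons had a median of 2958 UMIs. A rule that asks for several weakly expressed genes favours deep barcodes, so shares compared with other groups of barcodes are also given, unless stated, after each cell was thinned at random to 1000 UMIs. No Ntrk2 neuron was among the 12 barcodes that carried a suffix for a barcode seen more than once, which stood for 6 shared barcodes. The barcodes of 5 Ntrk2 neurons differed by at most 1 base from another barcode of the table, and 9 contained an unread base.

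The label of large mechanoreceptors was checked with markers that the rule did not use. Nefh (heavy neurofilament), S100b and Piezo2 were all detected in 82 of the 93 cells, and 88 had at least 4 of the 6 markers Nefh, S100b, Thy1, Scn1a, Kcna1 and Piezo2. Nefh stood at 3258 (3153 to 3367) CPM (the group's summed UMIs of the gene as counts per 1000000 of its summed UMIs) against 963 in other neurons, and S100b at 1344 (1277 to 1414) against 322. By cell, Nefh had a median of 2666 and a highest value of 11964 CPM, S100b 1154 and 5058, and Piezo2 805 and 5694. S100b and Kcna1 are also glial genes, at 1326 and 498 CPM in 279 glia barcodes, where Nefh was at 49.8 and Piezo2 at 25.9. No UMI of the nociceptor and cold channels Trpv1, Trpa1 and Trpm8 or of the receptor Mrgprd was seen in 89 of the 93.

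**Figure D1:**
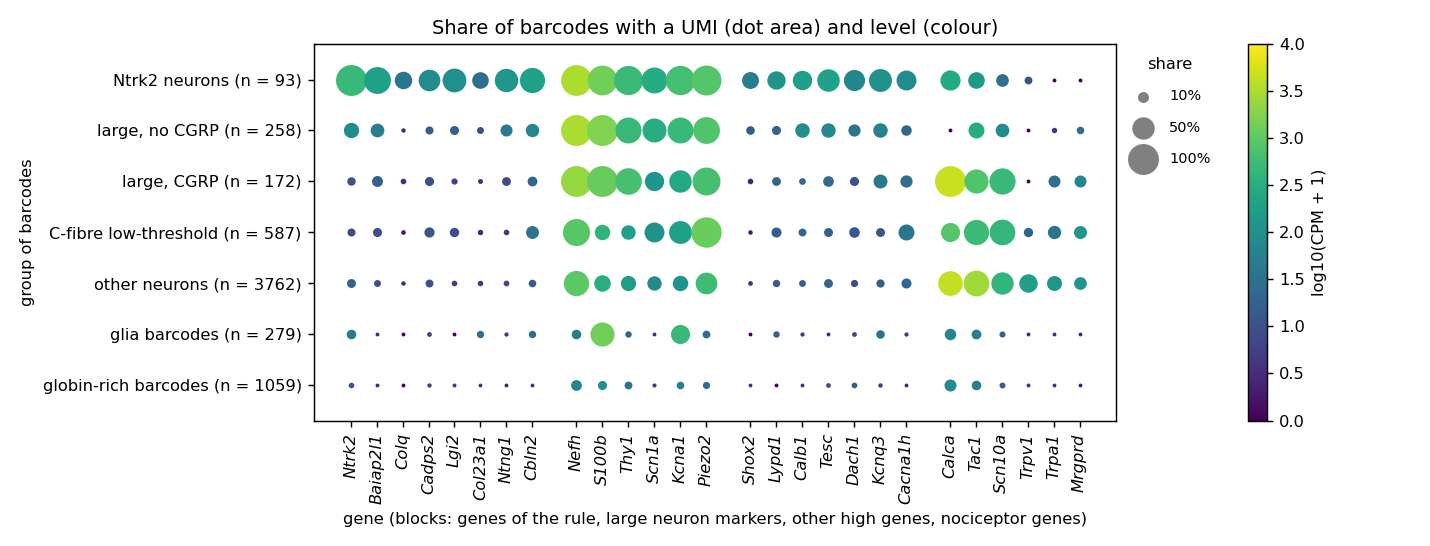
Each dot is 1 gene (horizontal axis) in 1 group of barcodes (vertical axis): its area gives the percent of barcodes with a UMI, without thinning, its colour log10(CPM + 1). The genes of the rule are highest in the 93 Ntrk2 neurons by construction. The large neuron markers are shared with both groups of large neurons, and Trpa1 and Mrgprd are at 0 in the Ntrk2 neurons.

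The genes of the rule are given as a description, because they chose the cells. Ntrk2 reached 497 (456 to 540.5) CPM in the Ntrk2 neurons, 83.4 in the 258 large neurons without CGRP, and 17.7 in other neurons as a whole. Barcodes rich in globin, which also held pituitary and glia RNA (51776 and 7401 CPM of their markers), gave 11.4 CPM with a UMI in 1.70% of barcodes. A cell held a median of 4 Ntrk2 UMIs and at most 30, and 14 cells held 1. After thinning, 53.8% of the Ntrk2 neurons kept a UMI of Ntrk2 against 2.42% of other neurons and 1.04% of globin-rich barcodes.

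Of the 7 further genes, Baiap2l1 was seen in 74.2% of the cells, Cbln2 in 64.5%, Lgi2 in 57% and Ntng1 in 54.8%. Cadps2 followed with 46.2%, Colq with 29% and Col23a1 with 25.8%. Colq was seen in 0.824% of other neurons and 0.775% of large neurons without CGRP, where Baiap2l1 was found in 16.7%. After thinning, Colq was left in 5.38% of the Ntrk2 neurons, 0.186% of other neurons and 0% of large neurons, and Baiap2l1 in 24.7%, 0.877% and 4.26%. Exactly 2 of the 7 genes were seen in 29 cells, 3 in 24, 4 in 17, 5 in 11, 6 in 10 and all 7 in 2.

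Cells just inside and just outside the limits differed in genes that the rule did not use. S100b was at 1327 CPM in the 40 cells with 4 or more of the 7 genes, at 1429.6 in those with exactly 3 and at 1325 in those with exactly 2. It was at 859 in 78 neurons with Ntrk2 and 1 of the 7 genes, and at 255 in 150 with Ntrk2 and none of them. The cold channel Trpm8 went the other way, with 1 UMI in the cells with 4 or more of the genes, none in those with exactly 2 or 3, and levels of 104 CPM with 1 and 307 with none. In 95 neurons with 2 or more of the 7 genes but no UMI of Ntrk2, S100b was at 1011 and Nefh at 1971 CPM, and their median depth was 8919 UMIs. The homeobox gene Shox2 was at 5.88 CPM in cells with exactly 2 of the genes, 85.3 with 3 and 53.6 with 4 or more. These levels rest on few UMIs, with 2 UMIs in the first set and 9 from 1 cell in the set with 3. The calcium channel gene Cacna1h was at 26.4, 74.7 and 114 CPM in the same 3 sets.

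The Ntrk2 neurons were then compared with all other neurons. The genes with the highest ratios included Gm16065, Shox2, Calb1, Tesc and Lypd1, and those with the lowest included Mrgprd, Trpa1, Tac1, Calca and Trpv1. Of 13688 genes outside the rule with a UMI in at least 10 cells and at least 20 UMIs over both groups, 934 (6.82%) were at least 2-fold higher in the Ntrk2 neurons and 2361 (17.2%) at least 2-fold lower. The lower count rests in part on 783 genes without a UMI in the Ntrk2 neurons, and with these at a limit of 3 counts over the group 65 of them and 1643 genes in all (12%) were at least 2-fold lower. Among the 7635 genes with at least 20 CPM in either group, the numbers were 391 (5.12%) and 619 (8.11%).

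Among genes seen in at least 20% of the Ntrk2 neurons, the highest ratio belonged to the long noncoding RNA Gm16065, with 53.3 (40.6 to 68.8) CPM against 2.27 and a log2 ratio of 4.55 (3.97 to 5.15). It lies on chromosome 5 at 119685088 to 119691218 (GRCm38, RefSeq), next to the gene for the T-box factor Tbx3 (119670534 to 119684724), and overlaps the antisense gene Tbx3os2, so that its value is uncertain where reads of the overlapping genes were shared. The same limit holds for other genes named here that overlap an annotated gene, among them Shox2 (Rsrc1), Lypd1 (Gpr39), Cacna1h (Tpsg1) and Baiap2l1 (Bri3). Tbx3 itself was at 119 (99.8 to 141) CPM against 25.7, a log2 ratio of 2.21 (1.93 to 2.49). Shox2, on chromosome 3 at 66971723 to 66981771, was at 44.3 (32.8 to 58.6) against 2.47 CPM, with a log2 ratio of 4.16 (3.56 to 4.76). It was seen in 25 of the 93 cells, or 26.9% (18.2 to 37.1), and in 1.01% of other neurons, or 4.30% and 0.425% after thinning. Dach1, a transcriptional cofactor, was detected in 44.1% of the Ntrk2 neurons, with a log2 ratio of 3.17 (2.76 to 3.57).

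Some of the highest genes encode calcium-binding proteins, although of 24 calcium-binding proteins counted as a list 5 were at least 2-fold higher and 7 lower, with a median log2 ratio of -0.13. The buffer calbindin (Calb1) was at 167 (144 to 193) against 15 CPM, a log2 ratio of 3.48 (3.20 to 3.74), and tescalcin (Tesc) at 199.8 (174 to 228) against 18.3, a log2 ratio of 3.45 (3.20 to 3.69). The neuronal calcium sensor Vsnl1 was found in 77.4% of the Ntrk2 neurons and 10.7% of other neurons, and after thinning in 25.8% and 3.93%. Rem2, a small GTPase that restrains voltage-gated calcium channels, had a log2 ratio of 3.09 (2.70 to 3.47).

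Lypd1, a membrane-anchored protein of the Ly6 family that binds nicotinic acetylcholine receptors, was at 123 (103 to 145) against 11.8 CPM, with a log2 ratio of 3.39 (3.07 to 3.70). One cell gave 35.3% of its UMIs, and 30 of the 93 cells had at least 1. Slc17a7, the vesicular glutamate transporter VGLUT1, had a log2 ratio of 3.56 (2.83 to 4.27) at a level of 26.2 CPM, whereas Slc17a6 (VGLUT2) was at 409 and 399.5 CPM in the 2 groups. Potassium channel genes were represented by Kcnq3, with a log2 ratio of 2.87 (2.54 to 3.19), and Kcnk1 with 2.74 (2.55 to 2.93). Kcnq3 was seen in 52.7% and Kcnk1 in 67.7% of the Ntrk2 neurons.

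The gene of the extracellular protein Sparcl1 was at 606 (561 to 653) against 67.3 CPM. The morphogen gene Shh was at 26.2 (17.6 to 37.6) against 3.33 CPM, and the GABA-A receptor subunit Gabrg1 had 50.6 against 5.90. Further genes of the 25 with the highest ratios were Tmem108, Pctp, Aldh1a7, Sh3bgr, Rasl10b, Gda, Tubb6, Sgk1, Slmo1 and 6430571L13Rik, with log2 ratios from 2.72 to 4.03. Gda was also seen in 24.9% of globin-rich barcodes and 60.2% of the Ntrk2 neurons, and Tmem108 and Sgk1 in 13.6% and 24% of glia barcodes, against 34.4% and 40.9% of the Ntrk2 neurons. After thinning these shares were higher in the globin-rich and glia barcodes, neither of which is free RNA alone, at 18.5% against 12.9% for Gda, 9.68% against 7.53% for Tmem108 and 16.8% against 11.8% for Sgk1.

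**Figure D2:**
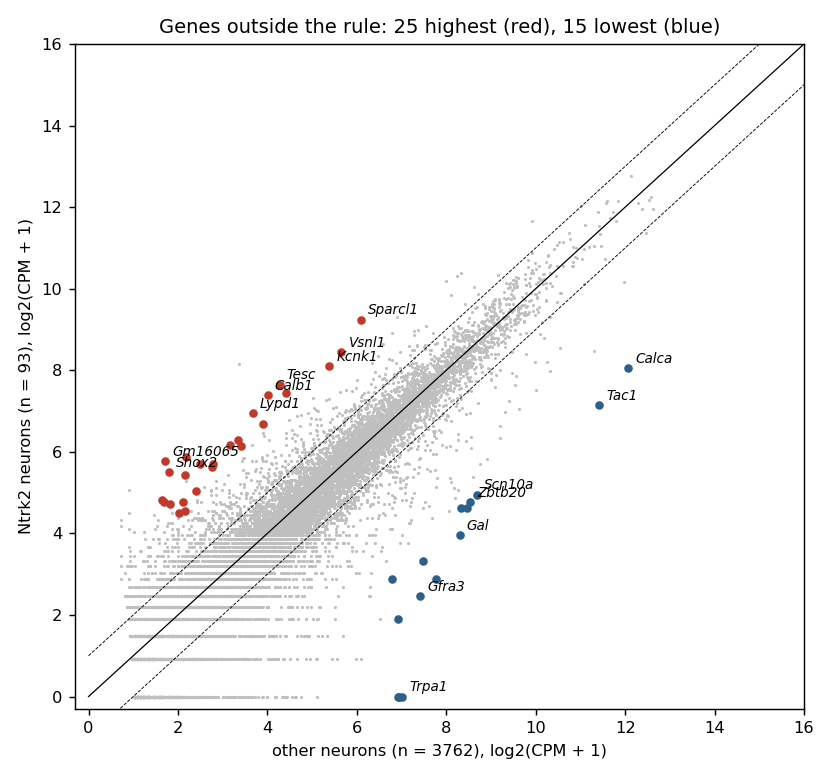
Each point is a gene outside the rule, with log2(CPM + 1) in the 3762 other neurons on the horizontal axis and in the 93 Ntrk2 neurons on the vertical axis; dashed lines mark a 2-fold ratio. The 25 highest (red, Shox2 and Calb1 among them) and the 15 lowest genes (blue, Calca and Trpa1 among them) lie well outside the lines.

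Of the genes with at least 100 CPM in other neurons, 3 were at 0 in the Ntrk2 neurons. With the limit of 3 counts over the group, the irritant channel Trpa1 was at least 47.1-fold lower, the peptide Vip at least 45.1-fold and the receptor Mrgprd at least 44.4-fold. A count of 0 of 93 cells allows up to 3.23% of cells with a UMI of the gene, which is no limit on cells that express it. Gfra3, the receptor for artemin, had a log2 ratio of -5.23 (-6.86 to -4.01), and the calcium pump gene Atp2b4 one of -5.48 (-7.76 to -3.93). The sensory sodium channel Scn10a (NaV1.8) was at 29.8 against 412 CPM, and Trpv1, the capsaicin receptor, at 9.04 against 176.

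Several neuropeptide genes were among the 15 lowest. Tac1, the precursor of substance P, was at 141 (119.7 to 165) against 2718 CPM, galanin (Gal) at 14.5 (8.27 to 23.5) against 314, and Nmb (neuromedin B) at 23.5 (15.4 to 34.4) against 322. Calca, which encodes CGRP, was at 265 (235 to 297) against 4289.6 CPM. It was unevenly spread, since 2 cells held 130 and 62 of its 293 UMIs, and the median cell held 0. Without those 2 cells the level was 94.8 CPM. Of the other UMIs, 67 lay in 15 of the 39 cells of a cluster described below (cluster 1). Emp3, Celf6, Ly86 and Zbtb20 completed the 15 lowest, with log2 ratios from -5.11 to -3.82.

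Gene lists were then read against the shares of all tested genes, 6.82% higher and 17.2% lower (12% with genes at 0 at their limit). Of 18 genes of large myelinated neurons, 15 were at least 2-fold higher and 1 lower, with a median log2 ratio of 1.61 (all tested genes -0.12). The highest ratio, 4.93 (4.66 to 5.20) on the log2 scale, was that of Spp1 (osteopontin), of which 14 cells had a UMI and 1 cell held 40.0%, and the lower gene was Calb2 (calretinin), without a UMI but at 2.47 CPM in other neurons, below the level that 3 counts in the Ntrk2 neurons would give. Thy1 was at 509 against 163 CPM, Cpne6 at 918 against 274 and the synaptic vesicle gene Vamp1 at 494 against 153. Of 22 nociceptor and thermosensor genes, 20 were at least 2-fold lower and 0 higher, and the exceptions were P2rx3, at 29.8 and 29.8 CPM, and Lxn, at 813 and 1423. Of 9 immediate early and injury genes, 8 were at least 2-fold lower, all but Jun, with Fos at 215 against 515 CPM and Gap43 at 439 against 1155.

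Ion channel genes were found on both sides. Of 12 sodium channel subunits, 5 were at least 2-fold higher and 3 lower. The fast channels of myelinated axons were among the former, Scn1a (NaV1.1) with 288 (258 to 322) against 79.4 CPM and Scn8a (NaV1.6) with 188 (163 to 215) against 62.3, as was the beta subunit Scn4b (349 against 123). Without the 19 cells of a cluster with a high mitochondrial share (cluster 15), the log2 ratio of Scn8a was 0.97 and no longer past 2-fold. Scn10a had the lowest ratio. Scn11a (NaV1.9) was at 40.7 against 389. Of 35 potassium channel genes, 12 were at least 2-fold higher and 9 lower. Kcna1 (Kv1.1), a channel of the juxtaparanode, was at 634 (588 to 682) against 118 CPM, and Kcnip4, a partner of A-type channels, at 60.6 against 206. The highest ratio of the list, for Kcng4, rested on 18 UMIs in 3 cells, and the lowest was that of Kcnf1 (2.71 against 22.8).

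Of 14 calcium channel subunits, 1 was at least 2-fold higher and 6 were lower. The higher one was Cacna1h (CaV3.2), a T-type channel of low-threshold mechanoreceptors, on chromosome 17 at 25374285 to 25436334, with 80.4 (64.6 to 99) against 20.2 CPM and a log2 ratio of 1.99 (1.64 to 2.33). Cacna2d1, the auxiliary subunit that binds gabapentin, was at 81.3 against 372, and Cacna1c and Cacna1e gave no UMI, with 10.1 and 5.40 in other neurons. Of 15 genes of mechanotransduction, 0 were at least 2-fold higher and 6 lower, against 6.82% and 17.2% of all tested genes. Among genes with at least 20 CPM in either group, where 5.12% of all genes were higher and 8.11% lower, the counts were 0 higher and 3 lower of 12 for mechanotransduction, 1 and 3 of 9 for calcium channels and 10 and 5 of 27 for potassium channels. Piezo2 was at 839 (786 to 895) CPM against 578 in other neurons and 1239 in the 587 C-fibre low-threshold neurons, and Stoml3, a stomatin that tunes mechanosensitivity, gave 1 UMI over the 93 cells.

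Receptors for other trophic factors were then compared. Ret, the signalling receptor of GDNF family ligands, was at 138 against 298 CPM. The GDNF co-receptor Gfra1 was at 90.4 against 33.6, with a log2 ratio of 1.43 (1.11 to 1.73), and was the one of the 11 genes of this list past 2-fold upwards, while 3 were past it downwards. Ngfr, the shared neurotrophin receptor p75, was at 231 (204 to 262) against 137 (132 to 142) CPM, a log2 ratio of 0.76 that did not reach 2-fold, with a UMI in 25.8% and 10.8% of cells after thinning (81.7% and 27% before). Bdnf, the ligand of TrkB, was at 137 (116 to 161) against 159 (154 to 165) CPM, with a UMI in 17.2% and 14.5% of cells after thinning (55.9% and 34.9% before).

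Relatives and partners of the genes of the rule were counted in the same way. Of 24 synaptic organizers and partners of Cbln2, Ntng1 and Lgi2, 6 were at least 2-fold higher and 2 lower, with Lrrc4, a netrin-G ligand, highest at 11.8 against 1.51 CPM and the pentraxin receptor Nptxr lowest at 31.6 against 75.4. Adam23, a receptor of LGI proteins, was at 221 against 80.9 CPM (log2 ratio 1.45, or 0.998 without cluster 15) and Clstn2 at 75 against 26.9. Acetylcholinesterase (Ache), which Colq anchors, was at 62.4 (48.5 to 78.9) against 56 (52.7 to 59.4) CPM. Of 27 vesicle priming and release genes, 3 were at least 2-fold higher and 9 lower, with Rab3b at 97.6 against 25.4, the Cadps2 relative Cadps at 174 against 252, and the synaptotagmin Syt7 at 39.8 against 219. Unc13c gave 1 UMI. Of 10 relatives and partners of Baiap2l1, 0 were at least 2-fold higher and 2 lower.

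Glutamate and GABA receptor subunits gave 8 higher and 3 lower of 24. Gabra5 was at 59.7 (46.1 to 75.9) against 14.9 CPM, whereas the kainate receptor subunit Grik1 was at 37.1 against 275. Of 39 transcription factors of sensory neurons, 11 were at least 2-fold higher and 9 lower. Foxp2, at 16.9 CPM in other neurons, gave no UMI. Maf, a factor of touch neurons, was at 109 against 21.4 and Onecut2 at 215 against 62.9, while the nociceptor factors Runx1 and Prdm12 were at 26.2 against 147 and 26.2 against 182. The pan-sensory factors Pou4f1 and Isl1 were at 169 against 175 and 302 against 256. Guidance and adhesion genes gave 8 higher and 6 lower of 33, led upwards by Lypd1 and Pcdh7 (86.8 against 14) and downwards by Plxnd1 (1.81 against 39.6).

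Among the lower calcium-binding proteins was S100a6 at 352 against 2536 CPM. Of 4 TAFA secreted proteins, Fam19a2 (124 against 29.1) and Fam19a3 (65.1 against 22.4) were past 2-fold. All but 1 of the 34 nuclear genes of energy metabolism had a ratio above 1, but only 2, Ldhb (1266 against 301) and Got1 (316 against 153), were past 2-fold, and the median log2 ratio was 0.50. Of 12 cholinergic genes 2 were higher and 4 lower, and of 10 genes of C-fibre low-threshold neurons 1 was higher (Nrp1, 389.6 against 182) and 3 were lower. With genes at 0 at their limit, the lower counts were 0 for genes of large myelinated neurons, 5 for calcium channels, 3 for cholinergic genes, 2 for glutamate and GABA receptor subunits and 5 for guidance and adhesion genes, and the others were as given. Among genes with at least 20 CPM in either group, where the shares of all genes also fell, to 5.12 and 8.11%, there were 2 higher and 2 lower of 17 synaptic organizers, 1 higher and 1 lower of 4 cholinergic genes, 0 higher and 1 lower of 5 relatives of Baiap2l1, 5 higher and 2 lower of 18 glutamate and GABA receptor subunits, 8 higher and 5 lower of 30 transcription factors and 4 and 4 of 23 guidance and adhesion genes.

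**Figure D3:**
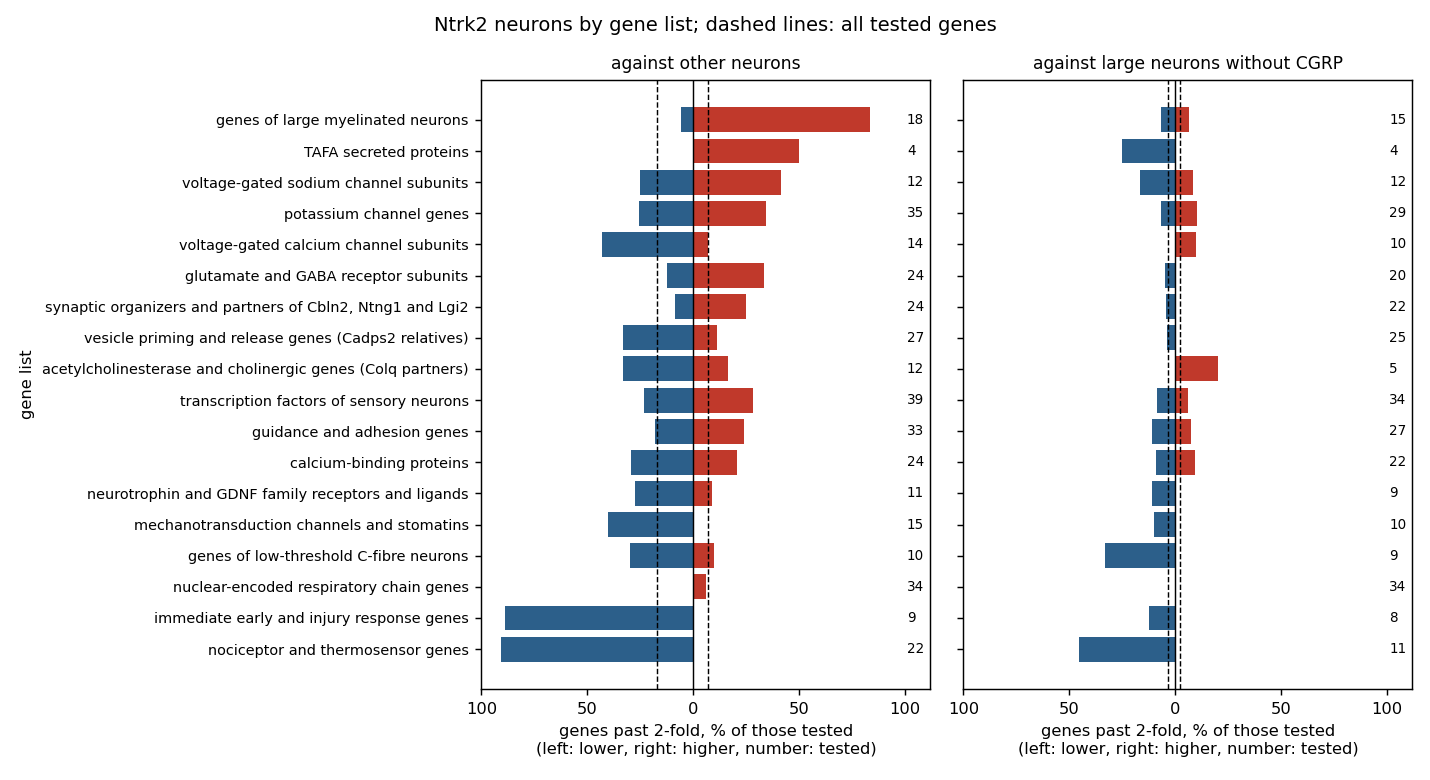
For each gene list (vertical axis), bars give the percent of its tested genes at least 2-fold higher (red, to the right) or lower (blue, to the left) in the Ntrk2 neurons than in other neurons (left panel) or in large neurons without CGRP (right panel); the number at the edge is the genes tested. Dashed lines mark all tested genes, at 6.82 and 17.2% on the left and 2.14 and 3.57% on the right. The bars for myelinated and nociceptor genes reach far past the lines on the left panel.

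The Ntrk2 neurons were next compared with 258 large neurons without CGRP, which had at least 2 UMIs of Nefh, 1 of S100b and none of Calca, Trpm8 and Trpv1. Their median depth was 2826.5 UMIs, and 21.3% of them had a UMI of Ntrk2 without reaching the limit of 2 further genes. Levels in 172 large neurons with at least 2 UMIs of Calca (large CGRP neurons) and in the C-fibre low-threshold neurons, which had a UMI of at least 2 of Cd34, P2ry1, Fam19a4, Gm7271 and Cdh9, are given where they bear on a gene. Of 9380 genes outside the rules of both groups, 201 (2.14%) were at least 2-fold higher in the Ntrk2 neurons and 335 (3.57%) lower. Among the 15 genes of large myelinated neurons tested here, 1 was higher and 1 lower, and Thy1, Vsnl1, Gabrg1, Slc17a7 and Sh3bgr, high against other neurons, had log2 ratios of 0.10 (-0.07 to 0.27), 0.14 (-0.07 to 0.35), 0.20 (-0.37 to 0.76), 0.48 (-0.36 to 1.33) and 0.46 (-0.13 to 1.06).

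Lypd1 had the highest ratio to the large neurons, with 123 (103 to 145) against 18.8 (11.9 to 28.2) CPM, a log2 ratio of 2.71 (2.06 to 3.41). The log2 ratio was 1.45 without barcodes that held 2 or more glia genes, which takes out the cell with 48 of its UMIs. Gm16065, Tmem108 and Shox2 were again among the highest, with log2 ratios of 2.33 (1.44 to 3.32), 1.90 (1.14 to 2.72) and 1.76 (0.92 to 2.67). Calb1, Tesc, Dach1, Sparcl1, Rem2, Shh, Kcnq3 and Kcnk1, high against other neurons, were not among the 15 highest against large neurons. Cacna1h was at 80.4 (64.6 to 99) against 21.3 (13.9 to 31.2) CPM, a log2 ratio of 1.92 (1.28 to 2.61), and in the large CGRP neurons and C-fibre low-threshold neurons it was at 24.2 and 35.9. After thinning, 10.8% of the Ntrk2 neurons and 2.71% of the large neurons kept a UMI of Cacna1h. The other genes of the 15 highest were Upb1, Tubb6, Tbc1d30, Fam89a, Mical2, Fads6, Cartpt, Lhfpl2, Rom1 and the growth factor signalling antagonist Spry4, with log2 ratios from 1.65 to 2.37. For Cartpt, a peptide precursor, 1 cell gave 39.7% of the UMIs, and its level was lower than in other neurons as a whole (241 against 709.8 CPM).

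Among the 10 lowest genes, Gh, Hbb-bt, Hba-a1 and Hbb-bs belong to pituitary and red blood cells. Globin markers summed to 1677 CPM in the Ntrk2 neurons and 4508 in the large neurons, with 1 of 5, Hba-a2, at 0 in the former. The highest large neuron reached 194510 CPM, the medians by cell were 998 and 1352, and 2 or more globin markers were seen in 77.4 and 68.2% of cells, without thinning. Summed pituitary markers were unevenly spread. They came to 222 and 1034 CPM, with Lhb the one of 6 at 0 in both, but 1 large neuron reached 295732 CPM and the median large neuron 0, against 2359 and 57.4 in the Ntrk2 neurons, so that by median the order of the summed markers, of which Gh is one, was the reverse. The part of free RNA and depth in this difference was not tested. The neuronal genes of this set were Cplx2, a complexin that clamps vesicle fusion (33.4 against 123 CPM), Grik1 (37.1 against 126), the calcium sensor Hpca (46.1 against 116), the G protein subunit Gng2 (50.6 against 135), the secreted Wnt antagonist Sfrp1 (82.3 against 196) and Trappc3l (79.5 against 308). The ratio of Hpca did not reach 2-fold when each cell had the same weight, with a log2 ratio of -0.71, nor did that of Sfrp1 without barcodes holding glia genes (-0.99). Ntrk3, the receptor for NT-3 found in proprioceptors and other touch neurons, was at 40.7 (29.7 to 54.4) against 98.9 (82.1 to 118) CPM, a log2 ratio of -1.28 (-1.81 to -0.78).

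The study's own gene lists for its clusters of neurons were chosen on these cells and are not independent evidence. Of 88 genes of its C5 list outside the rule, 54 were at least 2-fold higher than in other neurons and 0 lower, and against large neurons 11 of 86 were higher and 0 lower. The C5 list as used here held 97 genes, whereas the paper describes 100 for each cluster. For the C4 list the counts were 69 higher and 0 lower of 97 against other neurons, and 0 higher and 2 lower of 95 against large neurons. The C6 list gave 27 and 10 of 96, then 0 and 11 of 94. The C3 list gave 9 and 21 of 100, then 0 and 7 of 100. Of all tested genes, 6.82% were higher and 17.2% lower against other neurons, and 2.14 and 3.57% against large neurons. Among genes with at least 20 CPM in either group, the shares were 5.12 and 8.11%, then 1.41 and 2.65%.

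The 3855 neurons were also clustered without the genes of the rule, to see whether the Ntrk2 neurons lay together by other genes. Of 23 clusters at a resolution of 1, a single one of 326 cells held 66 of the 93, or 71.0% (60.6 to 79.9), and another held 19. At a resolution of 2, with 34 clusters, 39 of the Ntrk2 neurons lay in cluster 1, 27 in cluster 18, 19 in cluster 15, 4 in cluster 25 and 1 each in 4 others. The 4 single cells, of 37956, 28972, 18457 and 1054 UMIs, had 1 or 2 UMIs of Ntrk2 each. In that order they had 10, 6, 25 and 0 UMIs of Nefh, 1, 0, 11 and 0 of S100b, and 36, 60, 11 and 0 of Piezo2. The cell of 18457 UMIs also had 62 of Calca. The 8 cells outside clusters 1, 18 and 15 gave 12.2% of all UMIs of the Ntrk2 neurons. The Ntrk2 neurons made up 17.0% of cluster 1, 27.8% of cluster 18 and 16.4% of cluster 15. The clusters also differed in depth and RNA quality. The Ntrk2 neurons of cluster 18 had a median of 22055 UMIs and gave 55.3% of all UMIs of the Ntrk2 neurons, against medians of 4530 in cluster 1 and 3562 in cluster 15. Mitochondrial genes took a median of 9.21% of UMIs in cluster 15 (3.04 to 29.9), 1.75% in cluster 1 and 1.53% in cluster 18. The part of depth and mitochondrial RNA in these groups was not tested.

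**Figure D4:**
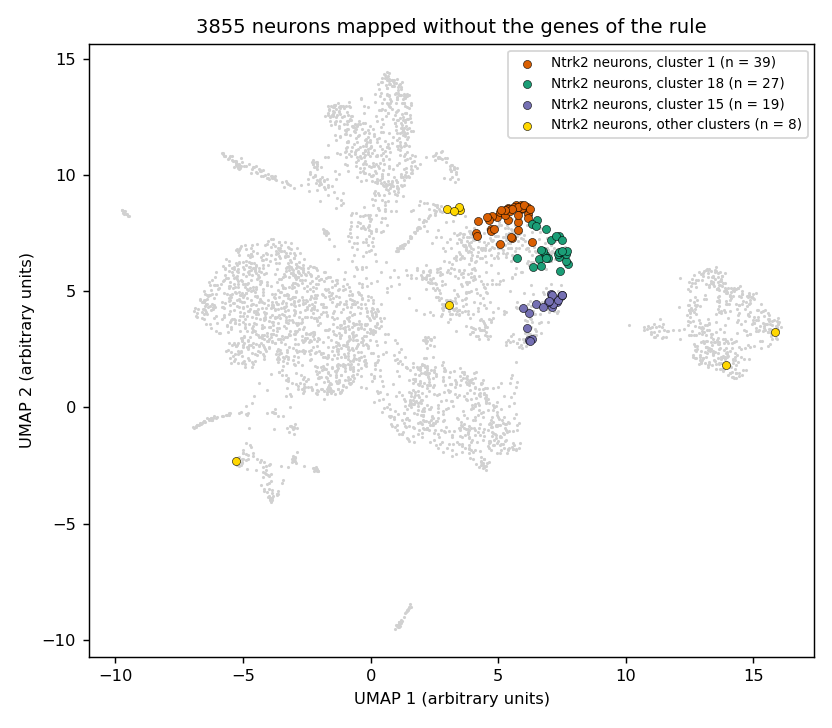
Each point is 1 of the 3855 neurons on a UMAP map, in arbitrary units, built without the genes of the rule, with the 93 Ntrk2 neurons in colour by cluster at resolution 2. The 39, 27 and 19 cells of clusters 1, 18 and 15 lie along one arc at the upper right of the central cells, and the other 8 lie outside it.

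The expression of the Ntrk2 neurons differed between these clusters, and the genes below are those with the largest differences or a role named above, picked after their values were seen. All genes outside the rule could enter the clustering, so that the values describe the clusters and are no test of them. Numbers of cells with a UMI were not thinned here and depend on the depths above. In cluster 1, Lypd1 was at 277 (217 to 349.7) CPM and seen in 21 of 39 cells, against 94.9 (72 to 123) in cluster 18, where 1 cell held 48 of 58 UMIs, and no UMI in cluster 15. Cacna1h was at 199 (148 to 262) in cluster 1, 27.8 (16.2 to 44.5) in cluster 18 and 135 (73.6 to 226) in cluster 15. Of the 14 Cacna1h UMIs in cluster 15, single cells with more than 20% mitochondrial UMIs held 5, 3 and 2. In clusters 1, 18 and 15, Cadps2 was at 203, 44.2 and 96.2 CPM. The calcium-binding protein Necab2 followed with 179.6, 49.1 and 38.5, and the transcription factor Pou4f2 with 152, 27.8 and 0. Rgs4, a brake on G protein signalling, was at 1581, 433 and 183 CPM. Calca was at 262 (203 to 332) CPM in cluster 1, where 15 of 39 cells had a UMI, 40.9 in cluster 18 and 57.7 in cluster 15. The cells with 130 and 62 of its UMIs lay outside these clusters.

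Calb1 was lowest in cluster 1. It was at 221 (185 to 261) CPM and seen in 22 of 27 cells of cluster 18, at 365 (259 to 502) in cluster 15, where 1 cell held 24 of 38 UMIs, and at 27.3 (11 to 56.3) in cluster 1, where 3 of 39 cells had a UMI. Shox2 was at 60.5 (42.6 to 83.4) CPM in cluster 18, 27.3 (11 to 56.3) in cluster 1 and 38.5 (10.5 to 98.5) in cluster 15, with overlapping intervals. Hopx (478, 42.9 and 317 CPM in clusters 18, 1 and 15), Pcp4l1 (424, 62.5 and 259.7) and Jun, an injury response gene (435, 113 and 269), were highest in cluster 18. Ntrk2 itself was at 291 (249.9 to 337) there, against 953 (837 to 1080.0) in cluster 1 and 1000.1 (817 to 1212) in cluster 15, and Piezo2 at 522 against 1199 and 1673. In all 93 cells Lypd1 was detected in 30, Calb1 in 34 and both in 6. In the 55 cells with at least 5000 UMIs the numbers were 22, 27 and again 6.

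Cluster 15, the one with the high mitochondrial share, differed from the other two in several genes. Kcna1 was at 1846 (1594 to 2127) CPM against 433 and 604 in clusters 1 and 18. Scn8a was at 827 (662 to 1021) against 184 and 111, Nefh at 7039 against 2265 and 3502, and Ret at 577 (440.3 to 743) against 50.8 and 88.3. Of the genes of the rule, Ntng1 stood out with 587 (449 to 754) against 121 and 83.4. S100b and Vsnl1 were lowest there, S100b with 827 against 1507 and 1593 and Vsnl1 with 202 against 339.7 and 432. The mitochondrial gene mt-Nd5 was at 9789.9 against 1488 and 1577.

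**Figure D5:**
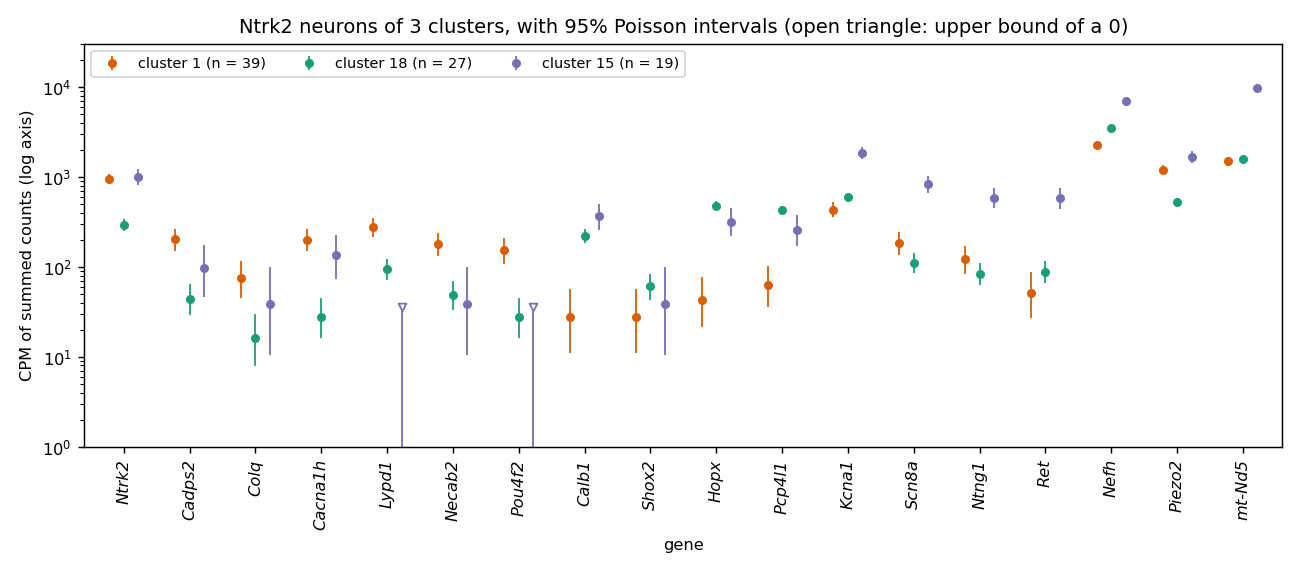
CPM of summed counts on a log axis for 18 genes (horizontal axis) in the Ntrk2 neurons of clusters 1, 18 and 15, with 95% Poisson intervals; open triangles give the upper bound where no UMI was counted. Lypd1, Cacna1h and Cadps2 are highest in cluster 1, Calb1 is low there, and Kcna1, Scn8a and mt-Nd5 are highest in cluster 15.

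The 4 Ntrk2 neurons of cluster 25 carried glial RNA, with 9 to 153 UMIs of Mbp (myelin basic protein) each. Over all 93 cells the 12 glia markers summed to 1860 CPM, with a range by cell of 0 to 36151 and Gfap at 0, against 2657 in other neurons and 2004 in large neurons, where single cells reached 196993 and 170921. The medians by cell were 649, 712 and 498 CPM in the Ntrk2, other and large neurons, higher in the Ntrk2 neurons than in the large ones, and 2 or more markers were seen in 59.1, 41.3 and 39.5% of cells, without thinning. Without barcodes holding 2 or more of 4 of these glia genes, 73 Ntrk2 neurons were left, and the log2 ratios to other neurons were 4.81 for Shox2, 4.17 for Calb1, 1.97 for Cacna1h and 2.36 for Lypd1. Markers of olfactory neurons (193 against 445 CPM, 2 of 5 at 0), vascular endothelium (4.52 against 12.4, 3 of 5 at 0) and central neurons (24.4 against 53.9, 3 of 6 at 0) summed to less than in other neurons.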

How the data were processed

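Trigeminal ganglion cells were measured by Dropseq in 9 runs, and the authors deposited 1 table of raw UMI counts per gene and barcode, which pools the runs. Per the submitters' processing notes, reads were handled with bcl2fastq 2.17, STAR 2.5.3a, Seurat 1.4.0.16 and mm10. The table held 30491529 UMIs over 21536 genes and 6997 barcodes (median 2031 UMIs, 1000 to 190815). No columns of the authors' own comparisons were used.

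UMIs were summed per group and given as CPM with exact Poisson intervals, shares with Clopper-Pearson intervals, and log2 CPM ratios with exact conditional intervals, all at 95% and for counting error only. A ratio past 2-fold was called; with 1 pooled sample no test was made, and depth by run is unknown. Genes at 0 were given a limit of 3 counts. Clusters came from scanpy 1.11.5 (2000 variable genes, 20 components, 15 neighbours, Leiden resolution 1 or 2). No doublet caller was run. Scripts (python 3.11.15, scipy 1.17.1) were tested on simulated data, and coordinates are RefSeq's for GRCm38.p6.

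The cells and gene lists were chosen with earlier results of these data known. Named genes were those of the rule, the 25 highest and 15 lowest against other neurons (a UMI in at least 20% of the Ntrk2 neurons, or at least 100 CPM in other neurons), the 15 highest and 10 lowest against large neurons, and the highest, lowest and role-bearing genes of each list; exceptions are named as chosen after their values were seen. Some genes that the rule picks are not reported here.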

Additional observations from a re-analysis of the deposited data

How the results depend on the processing

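No paired analysis was possible because the barcodes are not tied to the runs, and for the same reason no replicate could be left out. The number of Ntrk2 neurons was 64 with at least 3 of the 7 genes, 79 with at least 2 UMIs of Ntrk2, 92 with at least 900 genes, 90 with at most 20% mitochondrial UMIs, 97 with Epcam barcodes kept and 73 without barcodes holding glia genes. Counts of genes past 2-fold moved with the filter on low counts; the filter at 20 CPM was chosen after seeing the data. Against other neurons, 1959 genes were higher and 7377 lower without a filter, and 391 and 619 with at least 20 CPM in either group. Against large neurons without CGRP the numbers were 1849 and 2667 without a filter, 104 and 195 at 20 CPM, and 512 and 572 with the mean of single-cell CPM. Without the Ntrk2 neurons of cluster 15, an alternative also added after seeing the data, the counts were 872 and 2501 against other neurons and 165 and 399 against large neurons. The share of Ntrk2 neurons in the cluster that held most of them was 41.9% at resolution 2. Of 2765 alternative values for ratios of named genes, 401 lay outside the counting interval of the reported value and 1 ratio past 2-fold changed direction, that of Zbtb20 to large neurons (log2 ratio 0.19 with the mean of single-cell CPM). The causes were not tested. All 264 alternative values of the genes named among the 25 highest against other neurons stayed at least 2-fold higher, the lowest at 2.36 (Lypd1 without glia genes). Depth limits genes with few UMIs, whose ratios have wide intervals.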
